A study of Mus musculus with 8 samples.

Results

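Heart muscle cells are joined end to end at the intercalated disc. Several kinds of contact meet there: gap junctions, built from connexins, pass the electrical impulse from cell to cell; desmosomes anchor the intermediate filaments; and adherens junctions anchor the contractile apparatus through cadherin and the catenins. Loss or displacement of these contacts is a known feature of injured and arrhythmogenic myocardium. The 10 genes described here were the cardiac connexins Gja1, Gja5 and Gjc1, the desmosomal genes Dsp, Pkp2, Dsg2, Dsc2 and Jup, and the adherens junction genes Cdh2 and Ctnna3. They were 10 of 15156 genes with a usable probe. Their probes were found by the RefSeq transcript that names each probe, and each gene was read from its brightest probe, counting only probes that Feature Extraction, the image analysis software, marked as well above background in 4 or more of the 8 mice. Of 14 probes for these genes, 13 passed that filter, out of 34038 that passed among 55681 probes on the array, and none was saturated.

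Cardiac RNA came from male C57BL\6 mice 24 hours after surgery. The 4 MI mice had a permanent ligation of the anterior interventricular artery, under anaesthesia with an opened chest and pericardium. The other 4 mice were sham-operated, and the methods do not describe the steps of that operation. Per the paper, all of these mice also had an FDG-PET scan 24 hours after surgery, for which mice received Acipimox, FDG and isoflurane. One array was hybridized per mouse. The sources differ on the tissue: the labels name the ventricles, while the methods speak of the excised heart, and whether atria were included is not settled by them. Infarcted and surviving muscle were not separated, so that fewer cells of a type and less RNA per cell cannot be told apart.

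Values are log2 signals after normalization between arrays on the spike-in probes, fold changes are MI over sham-operated mice, and a gene is said to have risen or fallen where its limma p-value, adjusted over all 34038 probes by Benjamini-Hochberg, was under 0.05. The share of spots marked well above background ran from 58.6% to 66.4% across arrays. It was 61.4% to 66.4% in MI mice, and 65.8%, 58.6%, 58.9% and 59.1% in sham-operated mice 1 to 4. All 8 cardiomyocyte markers were measured and none passed the test, with a median log2 fold change of -0.06 and summed signals that overlapped between the groups. Some of these calls did depend on the setting. Pln, phospholamban, named after its values were seen, had -0.55 here (adjusted p = 0.178 by limma). It fell with 75th percentile scaling (-0.68, adjusted p = 0.00643) and quantile normalization (adjusted p = 0.0196). Actc1, cardiac actin, had 0.30 here (adjusted p = 0.418 by limma) and rose with the replicate number as a block (adjusted p = 0.0361). Of 5 neutrophil markers measured, 4 rose, and their summed signal was at least 204114 in MI mice and at most 78439 in sham-operated mice. The part of these cell types in the values of the junction genes was not tested.

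None of the 10 genes rose or fell 24 hours after MI. Over all probes, 3.38% rose and 0.355% fell by the same test. That split depended on the scaling: 90.5% of the probes called had risen here, against 83.8% with the authors' normalized values, 49.6% with 75th percentile scaling and 48.6% after quantile normalization. At an unadjusted limma p under 0.05 the count was also 0 of the 10, against 15.4% of all probes, and in no gene were the 4 MI mice separated from the 4 sham-operated mice, whereas 6.61% of all probes were higher and 2.39% lower in every MI mouse than in every sham-operated mouse. Log2 fold changes lay between -0.31 for Gjc1 and 0.30 for Jup. On this scale, which holds back the changes of dim probes such as those of Gja5, Jup and Ctnna3, the 95% interval of each of the 10 genes lay within 2-fold in both directions. The median of the 10 log2 fold changes was -0.07, beside 0.03 over all probes. A total of 6 genes had a lower mean in MI mice and 4 a higher one.

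**Figure D1:**
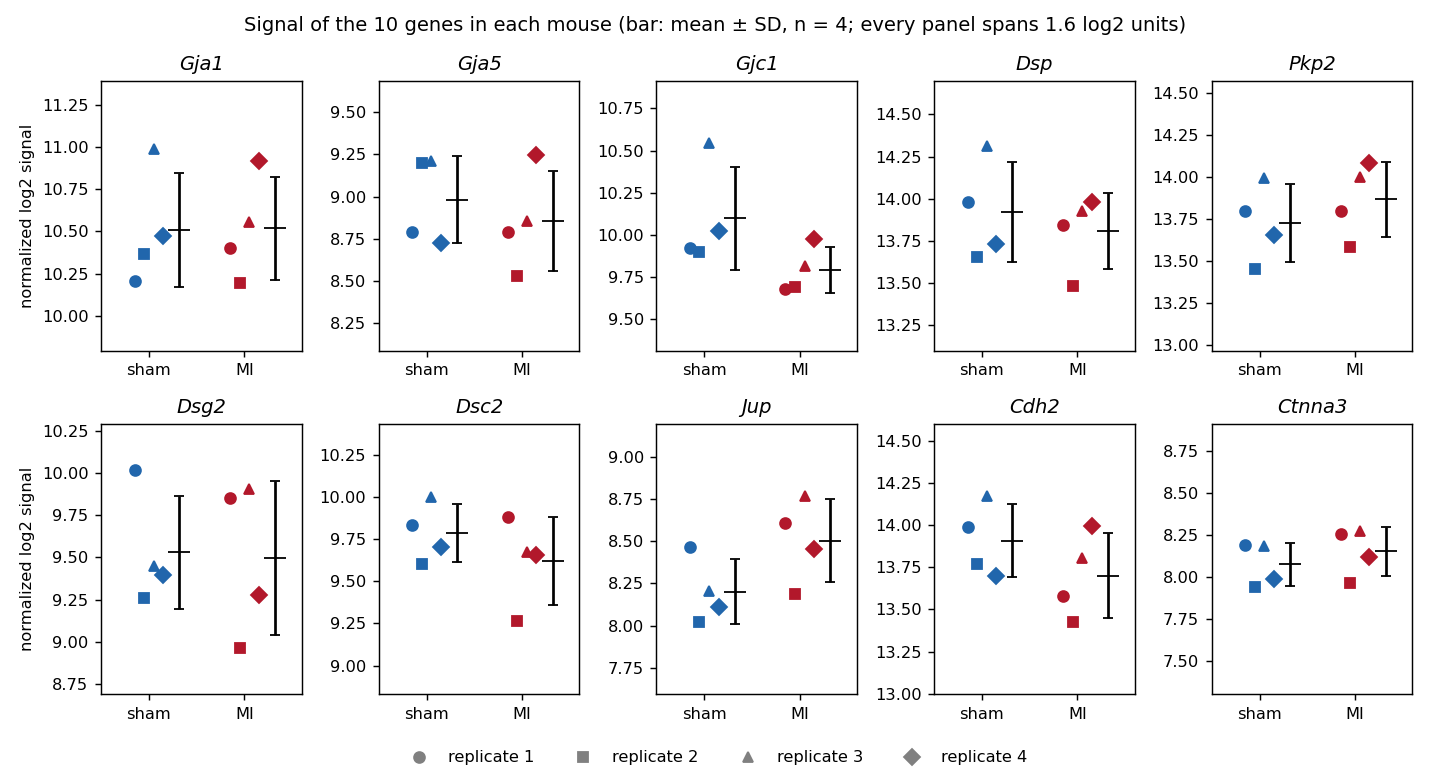
Normalized log2 signal of the 10 genes in each of the 4 sham-operated mice (blue) and 4 MI mice (red), with a marker shape for each replicate number and a bar for the mean ± SD. Every panel spans the same range of log2 units, and in each of the 10 panels the groups overlap.

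Gja1 encodes connexin 43, the main gap junction protein of working ventricular muscle. Its log2 signal was 10.40, 10.20, 10.56 and 10.92 in MI mice 1 to 4 and 10.21, 10.37, 10.99 and 10.47 in sham-operated mice 1 to 4. The highest value belonged to a sham-operated mouse and the next to an MI mouse, and the ranges covered each other almost entirely. The log2 fold change was 0.01 (SE 0.20, 95% interval -0.44 to 0.46, adjusted p = 0.993 by limma). Its sign was not stable, with 7 of 21 settings giving a lower and 14 a higher value in MI mice.

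Gja5 encodes connexin 40, found in atrial muscle, the conduction system and arterial endothelium. MI mice gave 8.79, 8.53, 8.86 and 9.24, and sham-operated mice gave 8.79, 9.20, 9.21 and 8.73. Among MI mice its pattern on this scale was close to that of Gja1, and Pkp2 and Cdh2 had the same order of mice. Deviations from the MI mean were -0.06, -0.33, 0.002 and 0.39 for Gja5 and -0.12, -0.32, 0.04 and 0.40 for Gja1. Among sham-operated mice the patterns of Gja5 and Gja1 differed: mouse 2 was among the highest for Gja5 and second lowest for Gja1. The log2 fold change of Gja5 was -0.13 (SE 0.17, 95% interval -0.52 to 0.27, adjusted p = 0.860 by limma). Its value moved with the setting, to -0.22 with the authors' normalized values, -0.37 with 75th percentile scaling, -0.41 after quantile normalization and -0.02 without MI mouse 2. A second Gja5 probe was well above background on 2 arrays only, both of MI mice, and was not used.

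Since Gja5 is also an atrial gene, the 4 atrial markers Nppa, Myl7, Sln and Myl4 were read beside it. Their mean log2 signal was 16.08, 15.20, 16.02 and 15.13 in MI mice and 14.72, 16.29, 15.03 and 11.35 in sham-operated mice. Sham-operated mouse 4 thus stood far below the other 7 mice, and for Myl4, the atrial essential light chain, it had 11.90 where the others had between 15.22 and 16.83. Gja5 was lowest of the sham-operated mice in that animal, but the lowest Gja5 value of all was in MI mouse 2, where the atrial markers were at 15.20. None of the 4 atrial markers passed the test here (Nppa rose in the authors' normalized values, adjusted p = 0.0495 by limma). Their median log2 fold change of 1.29 rested on sham-operated mouse 4: without it the values were 0.84 for Nppa, 0.10 for Myl7, -0.26 for Sln and 0.37 for Myl4. Without sham-operated mouse 4 the log2 fold change of Gja5 was -0.21 (adjusted p = 0.835 by limma). The part of atrial tissue in the Gja5 values was not tested further.

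**Figure D2:**
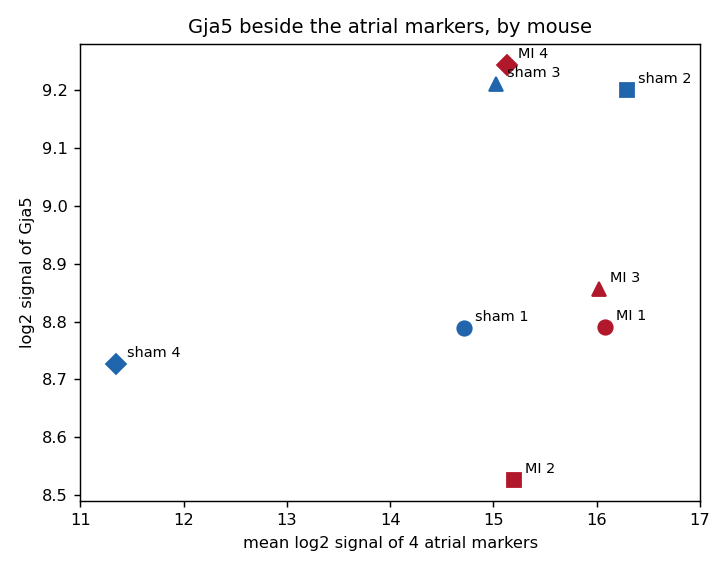
Log2 signal of Gja5 against the mean log2 signal of 4 atrial markers in each mouse, with MI mice in red and sham-operated mice in blue. Sham-operated mouse 4 is apart on the horizontal axis at 11.35, while the other 7 mice lie between 14.72 and 16.29 and span the whole range of Gja5.

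Gjc1 encodes connexin 45, the connexin of nodal and conducting tissue, present at low abundance in working muscle. Its values were 9.68, 9.69, 9.82 and 9.97 in MI mice and 9.92, 9.90, 10.55 and 10.02 in sham-operated mice. Of the MI mice, 1 (MI mouse 4) reached into the sham range, and sham-operated mouse 3 was well above all the others. The log2 fold change was -0.31 (SE 0.15, 95% interval -0.65 to 0.03), the lowest of the 10 genes, with an unadjusted p of 0.0702 and an adjusted p of 0.385 by limma. The exact permutation p, two-sided, was 0.0857. In all 21 settings tried the sign was negative, from -0.53 to -0.16, and the value nearest to 0 was that without sham-operated mouse 3.

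The connexins were then set against each other within each array, where the scale factor of the array cancels but the constant added to it does not. Such a difference of log2 signals carries the brightness of the probes as well, so that it shows whether a pair of connexins changed unequally and not which was more abundant. Gja1 minus Gjc1 was 0.72, 0.50, 0.74 and 0.95 in MI mice and 0.29, 0.47, 0.44 and 0.45 in sham-operated mice. Every MI mouse was above every sham-operated mouse, although MI mouse 2 cleared sham-operated mouse 2 by little. The means were 0.73 ± 0.18 (SD, n = 4) and 0.41 ± 0.08 (SD, n = 4), a difference of 0.32 (SE 0.10). The exact two-sided permutation p was 0.0286, the smallest that 70 labelings can give, and 0.0857 after adjustment over the 3 connexin pairs, so that it did not pass once the pairs were counted.

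The other pairs did not separate the groups. Gja1 minus Gja5 differed by 0.14 (SE 0.15, exact permutation p = 0.429) and Gja5 minus Gjc1 by 0.18 (SE 0.17, exact permutation p = 0.400). On the spike-in scale, which holds back the dim Gja5 probe, Gja1 minus Gja5 was nevertheless tight in MI mice, at 1.66 ± 0.04 (SD, n = 4). It was wide in sham-operated mice, at 1.53 ± 0.29 (SD, n = 4). This contrast in spread was seen in the values and was not tested. In the authors' normalized values the MI mice were less tight. Gja5 ran there from 7.47 in MI mouse 2 to 8.69 in MI mouse 4, and Gja1 only from 9.93 to 10.77 in the same mice. For Gja1 minus Gjc1, other ways of normalizing the signals gave differences of 0.35 to 0.40 with the same exact permutation p of 0.0286, and leaving out any 1 mouse gave 0.24 to 0.39.

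**Figure D3:**
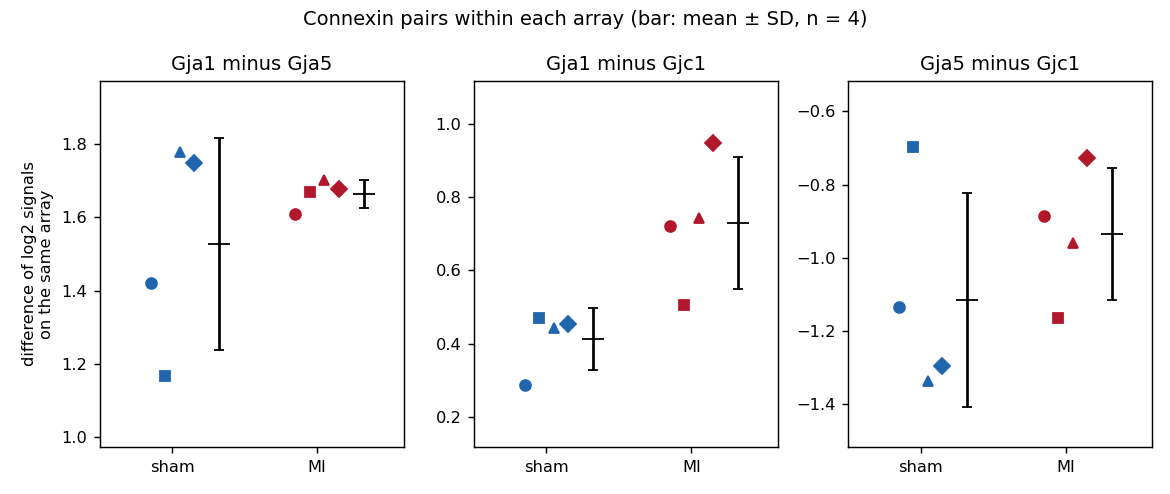
Difference between the log2 signals of a pair of connexins on the same array, for the 3 pairs, with each mouse as a point and the mean ± SD as a bar. Only for Gja1 minus Gjc1 do the 4 MI mice (0.50 to 0.95) lie above the 4 sham-operated mice (0.29 to 0.47).

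Dsp encodes desmoplakin, which ties the desmosomal plaque to the desmin filaments. It had 13.85, 13.48, 13.93 and 13.98 in MI mice and 13.98, 13.65, 14.31 and 13.73 in sham-operated mice. The difference, on the log2 scale, was -0.11 (SE 0.16, 95% interval -0.48 to 0.26, adjusted p = 0.876 by limma). A second, dimmer Dsp probe gave -0.11 as well (adjusted p = 0.859 by limma). Both probes placed the groups over each other.

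Pkp2 encodes plakophilin 2, an armadillo protein of the plaque. MI mice had 13.80, 13.59, 14.00 and 14.08, against 13.80, 13.45, 14.00 and 13.66 in sham-operated mice, so that 2 mice of each group were level. MI mice were 0.14 higher on the log2 scale (SE 0.14, 95% interval -0.18 to 0.47, adjusted p = 0.780 by limma). It was higher in MI mice in all 21 settings, by 0.01 to 0.24.

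Dsg2 and Dsc2 encode desmoglein 2 and desmocollin 2, the desmosomal cadherins of the heart. Dsg2 had 9.85, 8.96, 9.90 and 9.28 in MI mice and 10.02, 9.26, 9.45 and 9.40 in sham-operated mice. Among MI mice it varied most of the 10 genes, with an SD of 0.46; the SD among sham-operated mice was 0.34, as for Gja1. The high values of Dsg2 were in MI mice 1 and 3 and in sham-operated mouse 1. These arrays also had the highest shares of spots well above background, at 62.8%, 66.4% and 65.8%, with MI mouse 4 next at 62.4%. The part of this array-wide difference in the Dsg2 values was not tested. The dimmer Dsg2 probe was also highest in MI mice 1 and 3, with 8.26 and 8.27, and in sham-operated mouse 1, with 8.17. Log2 fold changes were -0.03 (SE 0.24, adjusted p = 0.982 by limma) for the first probe and 0.04 (adjusted p = 0.941) for the second. With the share of spots well above background as a covariate, the first probe gave -0.34 (adjusted p = 0.514 by limma). The interval of Dsg2, -0.59 to 0.52, was the widest of the 10.

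Dsc2 had 9.88, 9.26, 9.67 and 9.66 in MI mice and 9.83, 9.60 and 9.70 in sham-operated mice 1, 2 and 4, with sham-operated mouse 3 just above 10. MI mouse 1 lay above 3 of the 4 sham-operated mice. Its log2 fold change was -0.17 (SE 0.14, 95% interval -0.49 to 0.15, adjusted p = 0.708 by limma), and it was negative in all 21 settings. Dsc2 was the only one of the 10 genes whose call changed with the scaling. Scaling each array to its 75th percentile gave -0.36 (adjusted p = 0.0527 by limma) with every MI mouse below every sham-operated mouse, as was true of 12.7% of all probes on that scale. Quantile normalization gave -0.37 with an adjusted p of 0.0466 by limma, past the threshold, as for 9.27% of all probes on that scale.

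Jup encodes plakoglobin, also called gamma-catenin, which sits in both desmosomes and adherens junctions. Its log2 signal was 8.61, 8.19, 8.77 and 8.45 in MI mice and 8.47, 8.02, 8.20 and 8.11 in sham-operated mice. The 3 sham-operated mice other than mouse 1 were near the bottom, and sham-operated mouse 1 lay among the MI mice. As processed intensities before scaling, these 3 mice had 56.7, 62.9 and 60.9, sham-operated mouse 1 had 169.1, and MI mice had 169.1, 108.1, 203.9 and 165.4. The median intensity over all probes ran in a like way. It was 25.9, 29.6 and 27.6 in these 3 mice, 45.4 in sham-operated mouse 1, and 34.8 to 44.4 in MI mice. The part of this array-wide difference in the Jup values was not tested. The log2 fold change was 0.30 (SE 0.14, 95% interval -0.02 to 0.62), the highest of the 10, with an unadjusted p of 0.061 and an adjusted p of 0.359 by limma. The exact two-sided permutation p was 0.143.

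The size of the Jup difference rested on the processing. The spike-in model adds to each array a constant of 166 to 257, as large as or larger than most of these intensities, which holds back fold changes of dim probes. With the authors' normalized values, whose constants were 3.16 to 19.6, the log2 fold change was 0.78 (adjusted p = 0.104 by limma), and with 75th percentile scaling it was 0.72 (adjusted p = 0.0645). With the share of spots well above background as a covariate it was 0.13. Leaving out sham-operated mouse 1 gave 0.39 (adjusted p = 0.218). Jup was higher in MI mice in all 21 settings and passed the test in none of them.

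**Figure D4:**
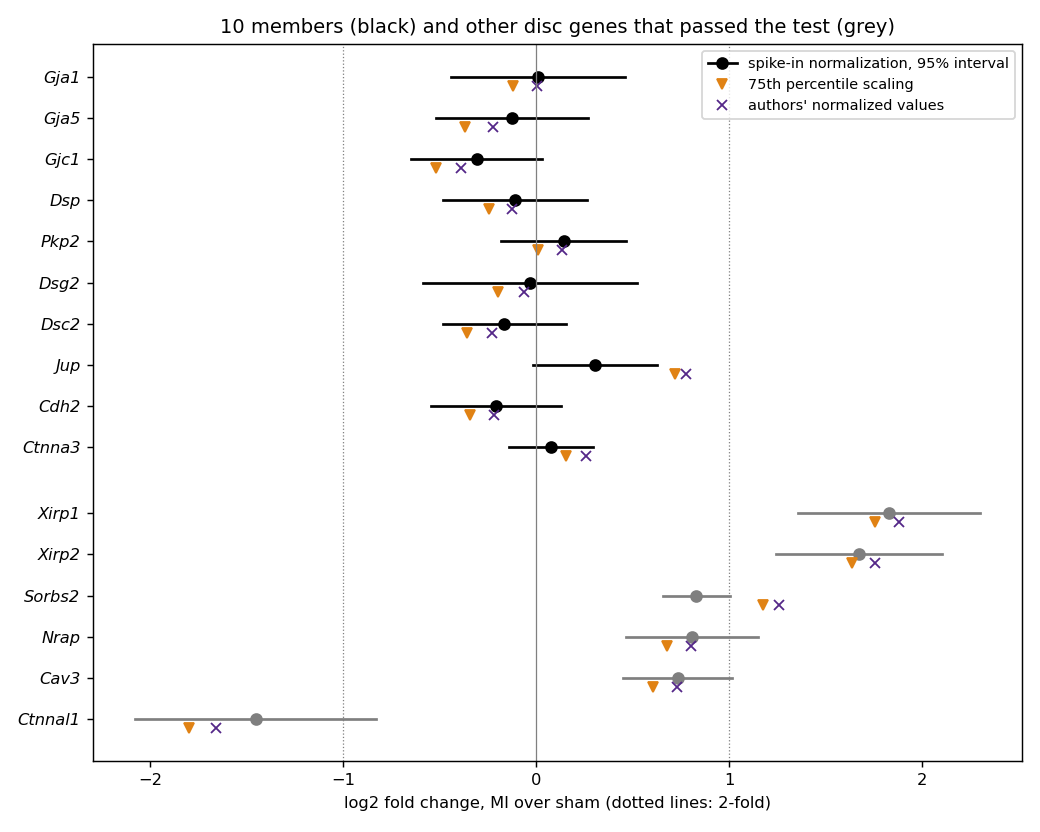
Log2 fold changes of MI over sham-operated mice with 95% intervals (n = 4 per group) for the 10 junction genes in black and for the other disc genes that passed the test in grey, with the values under 75th percentile scaling (triangles) and from the authors' normalized values (crosses). The black intervals all stay between the dotted 2-fold lines, and Jup shows the widest gap between normalizations among the 10, from 0.30 to 0.78.

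Cdh2 encodes N-cadherin, the cadherin of the cardiac adherens junction. MI mice had 13.58, 13.42, 13.80 and 13.99, and sham-operated mice had 13.99, 13.77, 14.17 and 13.70. The 2 lowest values of the 8 were in MI mice 2 and 1, but MI mouse 4 was as high as sham-operated mouse 1. The mean difference was -0.21 (SE 0.15, 95% interval -0.54 to 0.13, adjusted p = 0.622 by limma), and a second probe gave -0.27 (adjusted p = 0.624). Both probes were lower in MI mice on average, within the spread between mice.

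Ctnna3 encodes alpha-T-catenin, which links cadherin to actin and also binds plakophilin 2. It had 8.26, 7.96, 8.27 and 8.12 in MI mice and 8.19, 7.94, 8.18 and 7.99 in sham-operated mice, nearly matching sets of values. Its log2 fold change was 0.08 (SE 0.10, 95% interval -0.14 to 0.29, adjusted p = 0.842 by limma). Its probe was dim, with processed intensities of 41.4 to 95.2, below the added constant of every array, so that fold changes of this probe are held back; the authors' normalized values gave 0.26 (adjusted p = 0.627 by limma).

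On the spike-in scale, many of the 10 genes had their high and low values in the same mice. Among MI mice, mouse 2 had the lowest value in 9 of the 10 genes, and mouse 4 had the highest in 6. Among sham-operated mice, mouse 2 was lowest in 7 of the 10 and mouse 3 highest in 7. The mean of the 8 cardiomyocyte markers was also lowest in MI mouse 2, at 17.30, and highest in sham-operated mouse 3, at 18.00. It did not follow MI mouse 4, where it was 17.55, below MI mouse 3 at 17.87 and MI mouse 1 at 17.80. With 75th percentile scaling the ranks changed. MI mouse 1 was then below MI mouse 2 for Gja1 (9.93 and 10.25), among others. MI mouse 2 stayed lowest of its group for Dsg2, Jup and Ctnna3. For Dsp, sham-operated mouse 4 (13.83) was below sham-operated mouse 2 (13.99). The log2 scale factor of the spike-in model was lowest in MI mouse 2 (-0.32) and highest in sham-operated mouse 3 (0.36). It was -0.22 in MI mouse 4 and 0.03 in sham-operated mouse 2. Whether these shifts were technical was not tested.

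**Figure D5:**
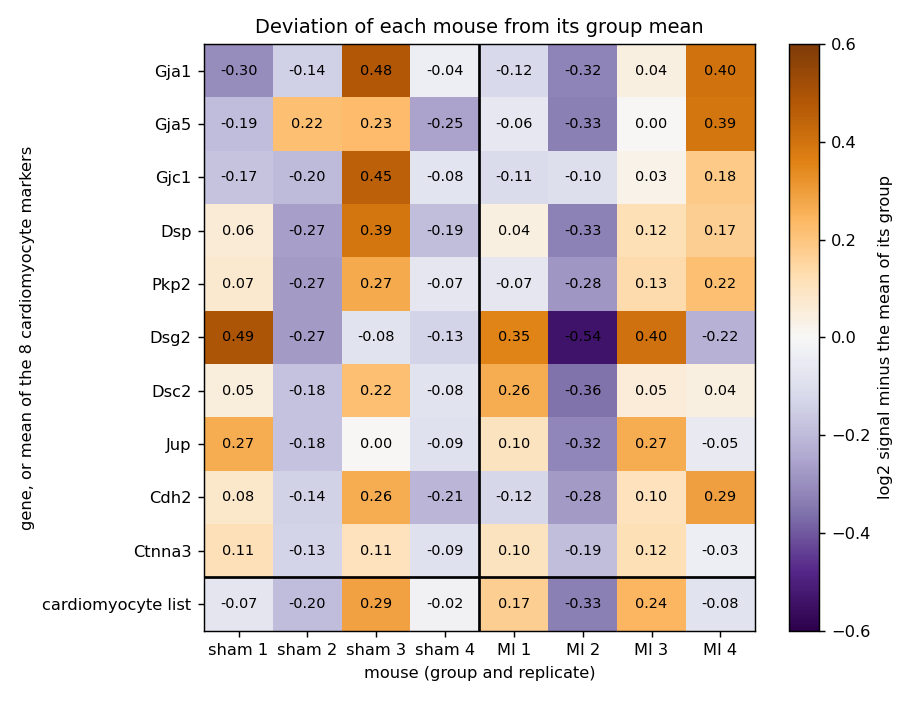
Log2 signal, on the spike-in scale, of each gene in each mouse minus the mean of its group, with the mean of the 8 cardiomyocyte markers in the bottom row. The column of MI mouse 2 is below its group mean for all 10 genes and for the markers (-0.33), and that of sham-operated mouse 3 is mostly above (markers 0.29).

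Each gene was also expressed relative to the mean log2 signal of the cardiomyocyte markers on the same array. The differences between MI and sham-operated mice were then -0.23 (SE 0.16) for Gjc1, 0.22 (SE 0.13) for Pkp2 and 0.38 (SE 0.13) for Jup, and between -0.13 and 0.16 for the other 7 genes. The groups still overlapped in each of the 10 genes. On this scale relative Jup was close to constant in MI mice, between -9.19 and -9.09. It was lower in 3 sham-operated mice, between -9.80 and -9.49, whereas sham-operated mouse 1 was at -9.17. The added constant does not cancel in this difference, and it holds back the spread of the dim Jup probe but not of the bright markers. In MI mice Jup itself ran from 8.19 to 8.77 here, against 6.66 to 7.87 in the authors' normalized values. The exact two-sided permutation p of relative Jup, 0.0571, was the smallest among the 10 genes and was not below 0.05.

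The rest of the disc was read from lists of related genes. Among 20 other connexins and pannexins, 10 had a usable probe, none of which rose or fell, and the median log2 fold change was 0.07. Gja4, a connexin of arterial endothelium, had 0.30 (adjusted p = 0.554 by limma) and Gjb1, best known from liver, had 0.12 (adjusted p = 0.808). Among 13 other desmosomal genes, 6 were measured and none rose or fell, with a median of 0.09; plakophilin 3 (Pkp3) had 0.24 (adjusted p = 0.803) and Perp, a membrane protein of desmosomes, had 0.38 (adjusted p = 0.387). The gap junction and desmosome families thus gave no call on this scale, whereas 2 of the 10 measured connexins and pannexins rose with 75th percentile scaling.

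Among 11 other catenin and adherens junction genes, 9 were measured and 1 fell, with a median of 0.05. With 75th percentile scaling 1 rose and 1 fell. The gene that rose there was Vcl, vinculin, named after its values were seen, with 0.55 (adjusted p = 0.0106 by limma). Here Vcl had 0.63 (adjusted p = 0.0588 by limma). Ctnnal1, alpha-catulin, a relative of alpha-catenin and vinculin, had 10.61, 9.40, 10.08 and 10.78 in MI mice and 11.82, 11.49, 11.64 and 11.74 in sham-operated mice. Every MI mouse was lower than every sham-operated mouse. Its log2 fold change was -1.45 (SE 0.27, adjusted p = 0.0239 by limma). The call was lost without MI mouse 3 (adjusted p = 0.0817) and without sham-operated mouse 1 (0.0655), 2 (0.0629), 3 (0.0561) or 4 (0.0808), while the log2 fold change stayed between -1.64 and -1.18. It was also lost with no detection filter (0.0586) and with the share of spots well above background as a covariate (0.0753). Ctnna1, alpha-E-catenin, had 0.34 (adjusted p = 0.360) and Cdh13, T-cadherin, had 0.30 (adjusted p = 0.628).

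The 22 other proteins of the disc were all measured, and 5 of them rose while none fell (7 rose and 3 fell with 75th percentile scaling), with a median log2 fold change of 0.33 beside 0.03 over all probes. Xirp1 and Xirp2 encode the Xin proteins, actin-binding repeats proteins of the disc that bind N-cadherin and beta-catenin. Xirp1 had 13.75, 13.54, 14.08 and 13.26 in MI mice and 12.16, 11.36, 11.89 and 11.91 in sham-operated mice, a log2 fold change of 1.83 (SE 0.21, adjusted p = 0.00215 by limma). For Xirp2 the values were 12.57, 12.61, 12.98 and 13.22 against 11.37, 10.93, 11.49 and 10.90, a log2 fold change of 1.67 (SE 0.19, adjusted p = 0.00213 by limma). Both kept the call without any 1 mouse.

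Sorbs2, an adaptor between actin and membrane contacts, rose with the smallest SE of the 5 genes on this scale. It had 9.55, 9.47, 9.77 and 9.65 in MI mice and 8.79, 8.75, 8.83 and 8.76 in sham-operated mice. Its log2 fold change was 0.83 (SE 0.08, adjusted p = 0.000784 by limma). In sham-operated mice Sorbs2 was about as dim as Gja5, and this scale holds back both the changes and the spread of dim probes. The log2 fold change of Sorbs2 was 1.26 in the authors' normalized values. Nrap, an actin-anchoring protein of the disc, had 15.35, 15.20, 15.53 and 15.36 against 14.66, 14.27, 14.94 and 14.34, a log2 fold change of 0.81 (SE 0.15, adjusted p = 0.0227). Its call was lost without MI mouse 1 (adjusted p = 0.0603), 3 (0.0778) or 4 (0.0591) and without sham-operated mouse 2 (0.062) or 4 (0.0788), with the spike-in shift alone (0.053) and with the covariate (0.0996). Cav3, muscle caveolin, had 15.45, 15.40, 15.77 and 15.15 against 14.72, 14.57, 14.78 and 14.77, a log2 fold change of 0.73 (SE 0.12, adjusted p = 0.0156), and lost the call without sham-operated mouse 2 (0.0541) or 4 (0.0512), with the spike-in shift alone (0.0683) and with the covariate (0.0711).

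In all 5 genes every MI mouse was above every sham-operated mouse. The brightest genes of the list without a call were Csrp3, the muscle LIM protein, with 0.32 (adjusted p = 0.142 by limma), and Popdc2, a cAMP-binding membrane protein, with 0.52 (adjusted p = 0.174). The difference between this list and the 10 junction genes was not tested, and the counts are given as they stand: 5 of 22 and 0 of 10. Over all probes 3.38% rose and 0.355% fell, so that 0 of 10 is close to the share over all probes. The genes of both were chosen with earlier results of these data known.

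Markers of other cells were read beside these values. The neutrophil genes S100a8, S100a9, Retnlg and Cxcr2 rose by 2.99, 2.78, 3.92 and 1.49 on the log2 scale, and Csf3r had 0.09 (adjusted p = 0.886 by limma). Of 4 smooth muscle markers only Acta2 rose (1.45, adjusted p = 0.0240 by limma), and of 5 monocyte and macrophage markers only Ccr2 (0.59, adjusted p = 0.0240); neither call held in all fits that left out 1 mouse. Acta2 lost it without MI mouse 1 (adjusted p = 0.0571) or 3 (0.0715) or sham-operated mouse 2 (0.0825), 3 (0.0629) or 4 (0.0771), and Ccr2 without MI mouse 3 (0.0775) or sham-operated mouse 2 (0.0725) or 4 (0.0751). With the covariate the adjusted p was 0.0891 for Acta2 and 0.104 for Ccr2, and with no detection filter it was 0.0589 for Acta2. None of the endothelial, fibroblast, mesothelial, conduction system or lymphocyte markers passed on this scale, whereas 1 endothelial marker (Pecam1, named after its values were seen) rose with 75th percentile scaling, by 0.53 (adjusted p = 0.0389). Among conduction system markers, Tbx3, a transcription factor of that tissue, had a log2 fold change of -0.70 (adjusted p = 0.232 by limma), and it fell with 75th percentile scaling (-0.89, adjusted p = 0.0172) and quantile normalization (adjusted p = 0.0227). Irx3 had 0.06 (adjusted p = 0.968). The part of these cells in the Gjc1 and Gja5 values was not tested.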

How the data were processed

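The 8 arrays lay on 1 slide. Per the file headers, the deposited intensities were processed signals of Feature Extraction 11.0.1.1, with background subtracted and no scaling between arrays; the authors' log2 values were normalized on the spike-in probes with limma and vsn. Since the vsn package was not installed, its model was fitted by maximum likelihood in Python to the 7 spike-in probes (234 spots), replicate spots were averaged, and a probe was kept if marked well above background in at least 4 mice. MI and sham-operated mice were compared with limma 3.58.1 in R 4.3.3, without covariates, and single values with exact two-sided permutation tests over 70 labelings. All 10 members were named, and from each related list up to 6 genes that passed the test and up to 2 of the brightest that did not. The members and lists were chosen with earlier results of these data known. Gene names came from RefSeq accessions. The alternatives covered normalization, background correction, detection filters, blocks, the test, the probe of a gene and leaving out each mouse; a covariate was added after seeing the data. Scripts were tested on simulated data. Array number limits the precision, and no probe sequence was used.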

Additional observations from a re-analysis of the deposited data

How the results depend on the processing

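The count of junction genes that fell, 0, became 1 (Dsc2) under quantile normalization and stayed at 0 in the other settings tried; the count that rose was 0 in every setting, the replicate number as a block included. An own version of significance analysis of microarrays, with all 70 permutations and a symmetric threshold, gave the 10 genes no q-value below 0.198. The number of all probes called, 1271, was 5973 with 75th percentile scaling, 6142 with quantile normalization, 2046 with the authors' normalized values, 2119 after normexp background correction, 4936 with the replicate block, 2740 with significance analysis of microarrays and 606 with the share of spots well above background as a covariate, the last chosen after seeing the data. In the normexp fit limma estimated 1 common spread for all probes, so that its p-values and its count do not reflect the spread of a probe and nothing rests on them. Leaving out 1 mouse gave 588 to 2270. The cause of these changes was not tested. Under the replicate block the markers Pln (adjusted p = 0.0247 by limma) and Tbx3 (0.0397) fell, while Actc1 (0.0361), Pecam1 (0.0316) and Emcn (0.0306) rose. The correlations of same-numbered deviations were 0.277, 0.364, 0.0868 and 0.00105. Mice with different numbers were not compared in this way, so that whether the replicate numbers pair the mice was not tested. With 75th percentile scaling the median log2 fold change was -0.02 over all probes and -0.22 over the 10 genes, of which 7 were lower; 7 of the 22 other disc genes then rose and 3 fell. Jup, Ctnna3 and the second probes of Dsp and Dsg2 were dim, which limits how well their changes were resolved.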
